A study of Homo sapiens with 6 samples.

Results

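The Wnt pathway is described here through 10 genes: the scaffold proteins AXIN1 and AXIN2, beta-catenin (CTNNB1), the surface proteins LGR5 and RNF43, the dishevelled-binding protein NKD1, the DNA-binding factors LEF1 and TCF7, and the target genes TBX3 and TNFRSF19. They were chosen by name, and every probe set that the array's annotation assigns to one of them was taken by itself. The annotation named 27 probe sets for 9 of the 10 genes, out of 19775 genes named on the array. No probe set was named for TCF7, whose expression was not analysed here. RNA came from Hep3B, an established human hepatocellular carcinoma line, in the form of 2 stably transfected clones. Clone 2 of plasmid pU6 served as the control, and clone D20 carried plasmid siSDHB, meant to silence SDHB, which encodes a subunit of succinate dehydrogenase, an enzyme of the citric acid cycle and the respiratory chain. Both were grown in medium with G418 and harvested close to confluence, and 3 Affymetrix arrays (HG-U133 Plus 2.0), A, B and C, were run for each. Each group is 1 clone, so silencing and clone cannot be told apart, and the labels do not say that the 3 arrays of a clone came from separate cultures. The p-values therefore measure only the spread between arrays, which may be technical. The level of SDHB was not analysed here.

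In the absence of a Wnt ligand, a cytoplasmic complex built on AXIN1 and APC has beta-catenin phosphorylated and degraded. Ligand binding to Frizzled and LRP co-receptors disables the complex, and beta-catenin then enters the nucleus and activates genes through DNA-binding factors of the LEF1 and TCF family. Several of the genes it activates, among them AXIN2, NKD1, RNF43 and LGR5, act back on the pathway. In liver the pathway sets the identity of hepatocytes around the central vein, and it is often activated by mutation in hepatocellular carcinoma.

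Each value is a MAS5 signal, a measure of brightness on a linear scale that is comparable between arrays for 1 probe set but not between probe sets. The median signal of an array lay between 77.7 and 92.4. Pearson's r of log2 values across probe sets was at least 0.943 within a clone and at most 0.919 between the clones. The ratio of the 3′ to the 5′ control signal, a measure of RNA integrity, overlapped between the clones for ACTB (1.42 to 1.90 in the control, 1.40 to 1.68 in D20) and for GAPDH (1.08 to 1.15 and 1.11 to 1.25). Albumin, a hepatocyte marker, was bright on all 6 arrays (39570.2 to 47312.9), while the summed signal of 9 hepatocyte markers was 235572.1 to 244607.7 in the control and 102855.1 to 111653.7 in D20. The markers of other cell types also differed: 8 fibroblast markers summed to 513.5 to 677.9 in the control and 3718.1 to 4530.2 in D20, with COL1A1 alone carrying the rise (0.7 to 1.7 and 3439.5 to 4230.5). LUM and DCN were lower on all D20 arrays (LUM 116.3 to 206.2 and 1.5 to 18.6, DCN 53.3 to 94.2 and 25.6 to 50.7), and the other 5 overlapped between the clones. The signals of 6 blood cell markers summed to 4005.8 to 5328.6 and 247.0 to 258.9, most of it LYZ in the control (3627.9 to 5002.8), while PTPRC, which defines leukocytes, did not exceed 50.2 on any array. The sums of 6 endothelial markers were 150.8 to 216.8 and 261.6 to 420.2. Of these, PECAM1 (38.8 to 106.7 and 165.6 to 238.4) and the dim TEK were higher on all D20 arrays, and the others overlapped. Those of 6 biliary markers were 19579.1 to 20423.3 and 21006.9 to 23748.9, with genes moving both ways. EPCAM (11450.2 to 12387.4 and 14198.6 to 17136.4), KRT19 and SPP1 were higher on all D20 arrays. SOX9 was lower on all of them (5509.6 to 6322.7 and 3600.4 to 4080.8), and KRT7 and CFTR overlapped. The part of these markers in the results was not tested. The number of arrays limits the precision.

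Most of the Wnt genes that gave a clear signal were lower in D20, and TNFRSF19 was higher. CTNNB1, LGR5, RNF43, LEF1 and TBX3 fell by between 0.56 and 2.53 on the log2 scale, TNFRSF19 rose by 2.90 to 3.66, and neither AXIN1 nor AXIN2 was called. Of the 27 probe sets 14 were bright enough to be tested, that is, above the 40% of probe sets with the lowest mean over all arrays (a signal of 43.2). TNFRSF19 224090_s_at (a control mean of 28.8) and TBX3 229576_s_at (a D20 mean of 37) passed only through the brighter clone. Of these 14, 9 were called lower and 3 higher at an adjusted p under 0.05 (limma, Benjamini-Hochberg over all 32768 probe sets tested). Over the whole array 36.5% of probe sets were called, 17.0% lower and 19.5% higher, so that a call by itself is common in this comparison. At least 2-fold, 5 of the 14 were called lower and 3 higher, against 5.95% and 9.23% of all probe sets tested. The 3 higher were all of TNFRSF19, and the 5 lower were of TBX3, CTNNB1 and LEF1, so these counts repeat genes. By gene, 5 of the 8 with a tested probe set had one called lower, and 1 had one called higher. The arrays of the clones did not overlap for 13 of the 14, against 47.2% of all. The median log2 fold change was -0.69 for the 14 and 0.03 for all probe sets tested. These shares and medians describe the list and are no test of it, since its members were not chosen independently of these data.

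**Figure D1:**
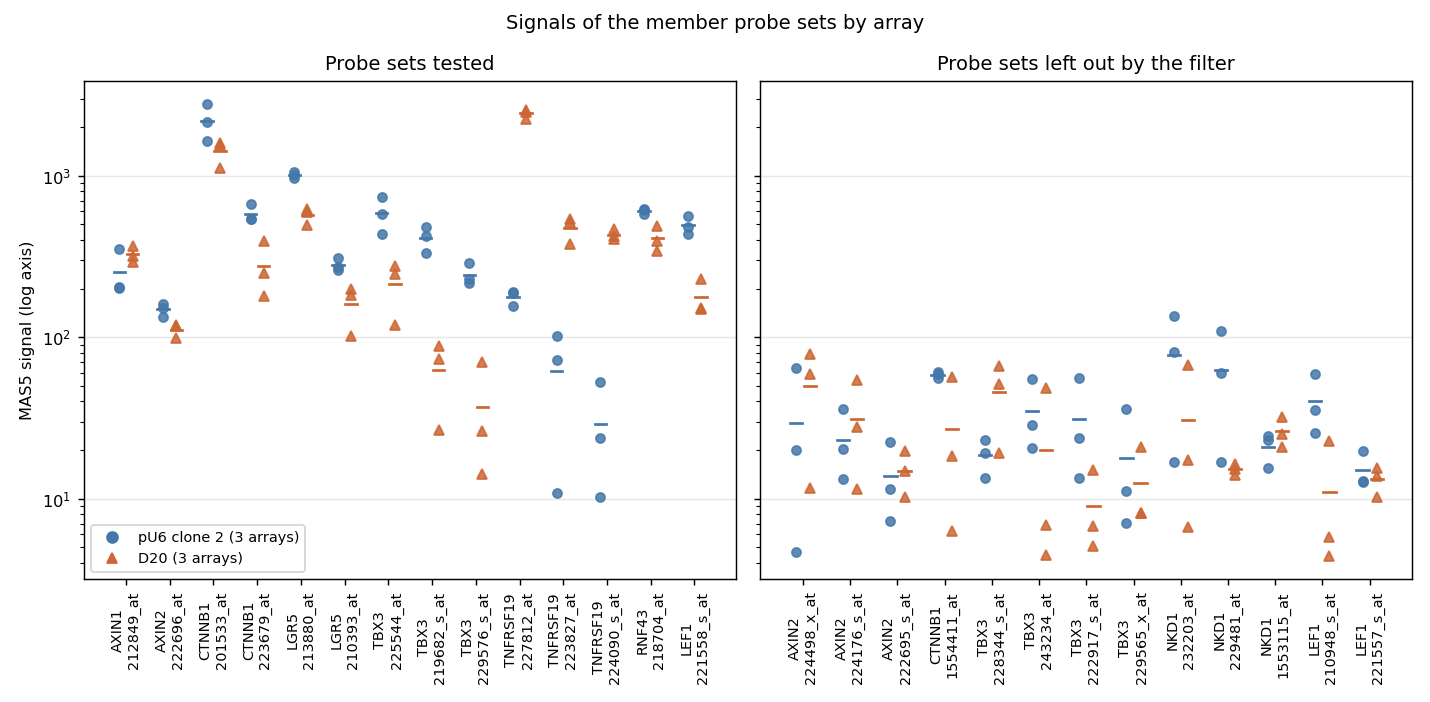
MAS5 signal (log axis) of each of the 27 probe sets on the 3 control arrays (circles) and the 3 D20 arrays (triangles), with horizontal lines at the clone means; the left panel holds the 14 probe sets tested and the right panel the 13 left out by the filter. In the left panel the triangles lie below the circles for LGR5, RNF43, LEF1, CTNNB1 and TBX3 and above them for TNFRSF19; in the right panel no signal exceeds 134.4.

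At the cell surface, LGR5 is a receptor for R-spondins, which strengthen Wnt signals, and a marker of stem cells in several epithelia. Its brighter probe set, 213880_at, gave 1048.4, 1011.0 and 960.6 on control arrays A, B and C and 591.1, 616.9 and 496.0 on those of D20. All D20 arrays lay well below all control arrays, and the signal fell by 0.81 ± 0.13 (SE) on the log2 scale, with an adjusted p of 3.6e-04 (limma, Benjamini-Hochberg). The second probe set of LGR5, 210393_at, read 307.8, 270.5 and 259.0 in the control against 102.1, 183.0 and 199.1 in D20. It again separated the clones, with D20 A the lowest array, and its log2 fold change of -0.78 ± 0.27 (SE) was close to that of the first. Its call (adjusted p = 0.038, limma) rested on the exact arrays and settings: the adjusted p was between 0.074 and 0.123 without any 1 of control A, B or C or without D20 A, where the log2 fold change was -0.51. The adjusted p was also 0.071 with no filter, 0.065 without the variance trend and 0.11 with the arrays scaled on spike-in controls (limma, Benjamini-Hochberg).

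RNF43 is a ubiquitin ligase that removes Frizzled receptors from the surface and is itself restrained by R-spondin bound to LGR proteins. Its only probe set, 218704_at, gave 610.2, 624.9 and 581.0 in the control and 396.0, 489.6 and 343.8 in D20. The clones did not overlap, and the control arrays were close together while the D20 arrays were spread more widely. The log2 fold change was -0.56 ± 0.17 (SE), with an adjusted p of 0.018 (limma, Benjamini-Hochberg). Without control A or B, or without D20 A or C, the adjusted p lay between 0.051 and 0.064, and with spike-in scaling the log2 fold change was -0.34 and the adjusted p 0.16 (limma).

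Among the scaffolds of the destruction complex, AXIN1 is its limiting component in many cells. Its probe set 212849_at read 203.3, 353.6 and 202.4 in the control and 291.8, 317.8 and 367.0 in D20. Control B lay within the range of D20, so the clones overlapped, and the log2 fold change of 0.38 had a 95% interval from -0.14 to 0.91 (adjusted p = 0.24, limma). AXIN2, its paralogue, is widely used as a readout of the pathway because beta-catenin induces it. Its probe set 222696_at gave 152.5, 161.2 and 132.3 in the control and 116.9, 98.4 and 118.7 in D20. The D20 arrays were all lower, but the log2 fold change of -0.37, with a 95% interval from -0.99 to 0.25, did not pass the test (adjusted p = 0.35, limma). That interval holds both no change and a fall close to 2-fold, so the data do not settle whether AXIN2 moved. Neither gene passed the test in any of the 14 alternative settings run.

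NKD1 binds dishevelled and is induced by the pathway as a feedback inhibitor. None of its 3 probe sets was bright enough to be tested. Probe set 232203_at read 134.4, 16.9 and 81.1 in the control and 17.3, 67.6 and 6.7 in D20, and 229481_at read 59.9, 16.9 and 109.7 against 14.1, 16.3 and 15.2. Control B was as dim as D20 in both. The remaining probe set, 1553115_at, stayed between 15.5 and 32.0 on all arrays, and no direction was assigned to NKD1.

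CTNNB1 encodes beta-catenin, the transcriptional effector of the pathway and also a part of cell junctions. It is controlled mainly by protein stability, which an RNA array does not measure. Its brightest probe set, 201533_at, gave 2789.2, 1636.9 and 2141.5 in the control and 1108.8, 1550.2 and 1592.1 in D20. Control B came within a short distance of D20 C, and the arrays just separated. The log2 fold change was -0.61 ± 0.18 (SE) with an adjusted p of 0.019 (limma, Benjamini-Hochberg). It did not pass the test without control A (log2 fold change -0.42), control C (-0.61) or D20 A (-0.44), without the variance trend (-0.61), or with spike-in scaling (-0.38), with adjusted p between 0.054 and 0.12 (limma). A second probe set, 223679_at, read 665.4, 540.7 and 538.6 in the control and 396.1, 179.5 and 250.4 in D20. Here the clones were clearly apart, the log2 fold change was -1.10 ± 0.24 (SE), and the call (adjusted p = 0.0033, limma) held in all 14 alternative settings. The third, 1554411_at, was left out by the filter, with 60.7, 59.2 and 55.9 against 6.3, 18.3 and 56.3.

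LEF1 is a DNA-binding partner of beta-catenin and, in several tissues, a target of the pathway. Probe set 221558_s_at gave 560.6, 434.3 and 480.7 in the control and 152.5, 228.9 and 149.0 in D20. All D20 arrays, D20 B being the highest, lay far below the control, and the log2 fold change was -1.41 ± 0.22 (SE), a 2.67-fold fall, with an adjusted p of 2.3e-04 (limma, Benjamini-Hochberg). The call held in all 14 alternative settings, with log2 fold changes from -1.60 to -1.20. Of the dim probe sets of LEF1, 210948_s_at read 35.2, 59.5 and 25.6 against 22.7, 5.8 and 4.4, and 221557_s_at stayed below 20 on all arrays.

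TBX3 is a T-box repressor that is activated by beta-catenin in liver tumours. Probe set 219682_s_at gave 421.1, 333.1 and 480.9 in the control and 72.8, 87.7 and 26.5 in D20. Probe set 229576_s_at gave 286.7, 215.5 and 227.5 against 26.4, 14.2 and 70.4. Both put all D20 arrays far below the control, with log2 fold changes of -2.53 ± 0.35 and -2.42 ± 0.42 (SE) and adjusted p of 7.9e-05 and 5.3e-04 (limma). Because the D20 signals were dim, the sizes depended on the pseudocount: with one of 64 the log2 fold changes were -1.93 and -1.64. The brightest probe set, 225544_at, read 739.8, 434.0 and 580.0 in the control and 118.5, 246.1 and 275.7 in D20. Its fall was the smallest of these, with a log2 fold change of -1.43 ± 0.29 (SE) and an adjusted p of 0.0016 (limma). All 3 calls held in the 14 alternative settings. The other 4 probe sets of TBX3 were left out by the filter, with signals between 4.5 and 66.6, and one of them, 228344_s_at, was nominally in the other direction (a mean of 18.6 in the control and 45.7 in D20, with overlapping arrays).

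TNFRSF19, also called TROY, is a receptor of the tumour necrosis factor receptor family. It has been described as a Wnt target that is found together with LGR5 in intestinal stem cells. Its brightest probe set, 227812_at, gave 188.5, 155.2 and 189.4 in the control and 2551.2, 2250.5 and 2471.7 in D20. All D20 arrays were more than 10 times as bright as any control array, and the log2 fold change was 3.66 ± 0.14 (SE), with an adjusted p of 1.1e-09 (limma, Benjamini-Hochberg). Probe set 223827_at read 101.4, 10.8 and 72.2 against 515.4, 378.7 and 536.8, and 224090_s_at read 10.2, 23.8 and 52.4 against 419.8, 465.3 and 407.8. These agreed in direction, with log2 fold changes of 2.90 ± 0.45 and 3.43 ± 0.37 (SE) and adjusted p of 2.4e-04 and 1.0e-05 (limma). The control signals of both were dim, so the size of the rise depended on the pseudocount: the log2 fold change of 224090_s_at was 4.13 with a pseudocount of 1 and 2.44 with one of 64, and that of 223827_at was 2.17 with one of 64. Control B was the lowest array of 223827_at, and without it the log2 fold change was 2.26. All 3 calls held in the 14 alternative settings. LGR5 and TNFRSF19 thus moved in opposite directions between the clones, each with every tested probe set called.

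**Figure D2:**
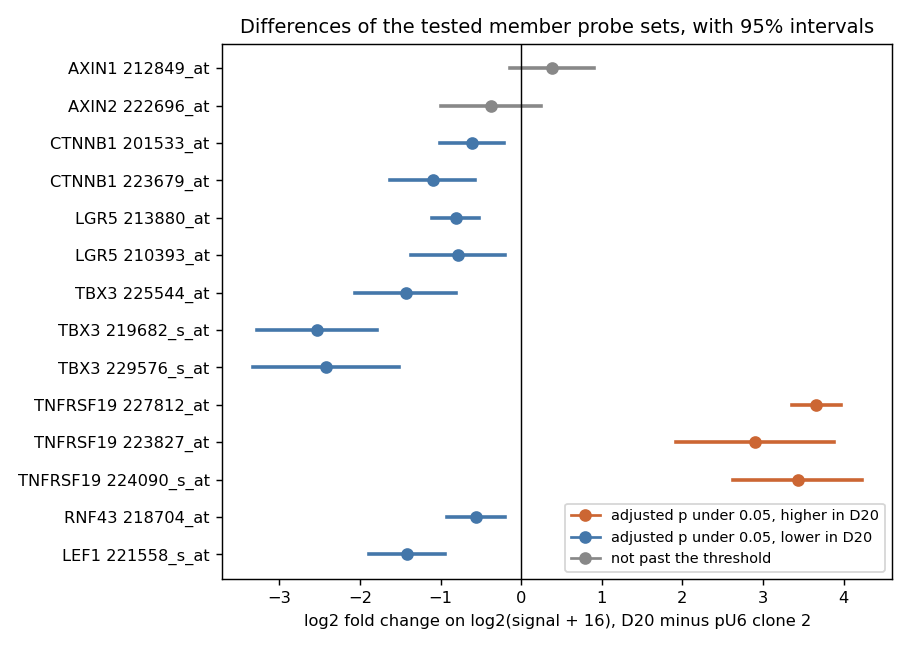
Log2 fold change, D20 minus the control clone, of the 14 tested probe sets (points) with 95% intervals from limma (lines); colour marks the call. The 3 probe sets of TNFRSF19 lie between 2.90 and 3.66, the 9 called lower between -2.53 and -0.56, and the intervals of AXIN1 and AXIN2 include 0.

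The 13 probe sets left out by the filter belong to AXIN2 (3), CTNNB1 (1), LEF1 (2), NKD1 (3) and TBX3 (4). Their signals ran from 4.4 to 134.4, and the arrays of the clones overlapped for 11 of them. In a fit with no filter none of the 13 was called by limma, while 11 of the other 14 remained called. For these genes the calls given above come from the brighter probe sets alone.

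Position was examined, after the values had been seen, through the 20 nearest tested genes of each member on its chromosome in the RefSeq gene order (10 on each side). Over all genes tested, 44.3% were called, 23.6% higher and 20.7% lower. LGR5 and TBX3, both on chromosome 12, had these neighbours. For LGR5, 7 of the 20 neighbours were called lower and 1 higher, with a median log2 fold change of -0.27. For TBX3, 8 were lower and 0 higher (limma adjusted p under 0.05), with a median of -0.34. The neighbours of LEF1 on chromosome 4 were 5 lower and 5 higher with a median of -0.03, and those of TNFRSF19 on chromosome 13 were 3 lower and 6 higher with a median of 0.05. Those of CTNNB1 on chromosome 3 were 4 lower and 6 higher with a median of 0.37. Those of RNF43 on chromosome 17 were 3 lower and 9 higher with a median of 0.27. For AXIN1 on chromosome 16 they were 3 lower and 2 higher (median -0.13), and for AXIN2 on chromosome 17 they were 2 lower and 8 higher (median 0.36). The part that a shift of a whole chromosome stretch has in the falls of LGR5 and TBX3 was not tested.

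Promoter sequences, from 250 bases before to 50 bases from the annotated start on, were found in the RefSeq table (GRCh38.p14) for 6 of the 10 genes, as 9 windows. The windows of TNFRSF19, which rose, and LEF1, which fell, are shown because these genes had large changes in opposite directions. Capitals mark the core CAAAG of the site that LEF1 and TCF factors bind, on either strand. TNFRSF19 has a first window at chr13:23570162-23570461 and a second at chr13:23579110-23579409 (both plus strand), and the window of LEF1 is at chr4:108166252-108166551 (minus strand).
TNFRSF19 first window: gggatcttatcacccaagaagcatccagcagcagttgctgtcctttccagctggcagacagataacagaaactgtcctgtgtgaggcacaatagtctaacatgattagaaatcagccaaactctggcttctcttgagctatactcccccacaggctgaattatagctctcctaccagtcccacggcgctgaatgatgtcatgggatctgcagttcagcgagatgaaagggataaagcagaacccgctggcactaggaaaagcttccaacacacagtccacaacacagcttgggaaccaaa
TNFRSF19 second window: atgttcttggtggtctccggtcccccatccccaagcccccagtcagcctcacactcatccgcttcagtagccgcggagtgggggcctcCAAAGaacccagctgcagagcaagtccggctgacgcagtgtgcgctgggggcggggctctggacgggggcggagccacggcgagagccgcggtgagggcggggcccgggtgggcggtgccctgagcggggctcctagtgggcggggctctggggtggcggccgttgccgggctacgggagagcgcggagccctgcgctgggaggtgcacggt
LEF1 window: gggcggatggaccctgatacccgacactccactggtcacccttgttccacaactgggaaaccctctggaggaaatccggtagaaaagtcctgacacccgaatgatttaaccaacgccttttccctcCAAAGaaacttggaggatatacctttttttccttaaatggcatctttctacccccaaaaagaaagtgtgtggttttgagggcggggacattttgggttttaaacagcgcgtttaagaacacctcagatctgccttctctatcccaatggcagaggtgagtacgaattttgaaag

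The core was absent from the first window of TNFRSF19 and present once in the second, with its first base at -162 from the start, and once in the window of LEF1, at -124. Each of the windows of RNF43 held it once, and those of AXIN1 and CTNNB1 did not hold it. Of the windows of TCF7 the first did not hold it and the second held it 2 times. The core is common, being found in 47.5% of the 35116 promoter windows of the table. The longer forms ATCAAAG and TTCAAAG, found in 2.62% and 4.43% of all windows on either strand, occurred in none of the 9 windows. The windows also differed in base composition, the second of TNFRSF19 having 72.7% G and C with 27 CpG and that of LEF1 47% with 9 CpG, against medians of 58.7% and 14 over all windows.

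Outside these members, 127 further Wnt pathway genes were listed by role. Of the 91 tested, 29 rose and 22 fell, that is 56.0% called against 44.3% of all genes tested (limma adjusted p under 0.05), and the median log2 fold change was 0.16, compared with 0.04. The split of calls depended on scaling: 22 rose and 25 fell after median centring of the arrays, and 37 rose and 17 fell with spike-in scaling. Each gene is given here by its brightest probe set.

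Of 18 genes for ligands and their secretion on the array, 10 were tested. Of these, 5 rose and 0 fell, so that 50% were called against 44.3% of all genes tested. The filter used the mean over all arrays. WNT11 and WNT9A, with control means of 20.5 and 28.6, below the filter signal of 43.2, were tested only through D20. Genes this dim in the control had little room to be called lower, so the direction of the calls is in part set by the filter. WLS, which carries Wnt proteins to the cell surface, went from 233.3, 143.1 and 227.7 to 2854.9, 2875.4 and 2978.9, a log2 fold change of 3.78 ± 0.17 (SE), or 2.28 on its brightest probe set with neither the _s suffix, which marks probes shared between transcripts, nor the _x suffix, which marks probes that may cross-hybridise. WNT2B (2.66) and WNT11 (2.30) rose from dim control signals with means of 67.9 and 20.5. WNT2B was at 1.94 without control B, whose signal of 9.2 stood below the 89.2 and 105.3 of the other control arrays, at 1.96 with a pseudocount of 64 and at 2.00 averaged over its probe sets. For WNT2B 1 of 3 other probe sets was also called, and WNT11 was at 1.35 with a pseudocount of 64.

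Receptors and co-receptors moved both ways, with 5 of 12 higher and 4 lower (75% called, against 44.3% of all genes). The Frizzled receptors FZD3 (2.67, or 1.80 averaged over its probe sets and 1.99 with a pseudocount of 64) and FZD6 (1.86) rose and ROR1, an alternative Wnt receptor, fell from a mean of 118.8 to 23.9 (a log2 fold change of -1.11 even with a pseudocount of 64). That D20 mean lay below the filter signal of 43.2, so this probe set of ROR1 was tested only through the control. It had little room to be called higher. LRP5 and LRP6, the co-receptors of the beta-catenin branch, were singled out after their values were seen. LRP5 went from 4310.5, 5208.9 and 4257.4 to 1333.4, 1563.8 and 1257.8 (-1.72 ± 0.11, SE), its 1 other tested probe set not being called. LRP6 went from 2624.4, 2228.5 and 2309.1 to 793.8, 818.8 and 882.2 (-1.50 ± 0.11, SE), and its 2 other tested probe sets were also called lower. Both lay far below the control on every D20 array and were called in every setting run.

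In the R-spondin axis 3 genes were tested, 1 of which fell and 0 rose (33.3% called, against 44.3%). LGR4, a paralogue of LGR5 with the same ligands, went from 4576.8, 3516.8 and 4017.5 to 824.7, 579.1 and 798.7. Its log2 fold change was -2.44 ± 0.14 (SE), or -1.61 averaged over both probe sets, the other being at -0.78 and not called (adjusted p = 0.38, limma). ZNRF3, the paralogue of RNF43, was also looked at after its values were seen: 0.18 ± 0.10 (SE), adjusted p = 0.20, and 0.41 with spike-in scaling, where it passed the test (adjusted p = 0.027, limma).

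Of 9 tested antagonists 4 rose and 0 fell, and the share called, 44.4%, was that of all genes tested (44.3%). Among the called genes the largest changes were those of KREMEN1 (1.59), TPBG (0.94) and DKK3 (0.89). KREMEN2 (1.46) and FRZB (-1.08, all D20 arrays lower) changed by more than TPBG and DKK3 but were not called (adjusted p = 0.060 and 0.070, limma). Against the filter signal of 43.2, KREMEN2 had a control mean of 25.4 and was tested only through D20. FRZB had a D20 mean of 42.2 and was tested only through the control. DKK3 was at 1.77 on its brightest probe set free of the _s and _x suffixes. Of its 3 other tested probe sets 2 were also called higher, and the remaining one was at 0.65 and not called (adjusted p = 0.38, limma). KREMEN1, a receptor of DKK proteins, was not called on the average over its probe sets (0.87, adjusted p = 0.092, limma). In the dishevelled and destruction complex list 13 of 20 genes were not called, 4 rose and 3 fell (35% called, against 44.3% of all genes). FBXW11 (1.10), an F-box protein that recognises phosphorylated beta-catenin, and the tankyrase TNKS (0.45) rose, and the casein kinase CSNK1E fell (-0.52). The TNKS call was lost in 6 of 16 settings, among them leaving out control B, control C or D20 C (adjusted p 0.13, 0.091 and 0.14, limma). The CSNK1E call was lost with spike-in scaling (-0.30, adjusted p = 0.14) and on the average over its probe sets (adjusted p = 0.054, limma).

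Among 16 nuclear factors 4 rose and 6 fell (62.5% called, against 44.3% of all genes, of which 23.6% rose and 20.7% fell). CTBP2, a co-repressor, rose by 2.88 and was called higher by all 4 of its other tested probe sets. PYGO1, a co-activator, was at 2.24 from a control mean of 13.7 (1.23 with a pseudocount of 64, 3.37 with one of 1), and CTNNBIP1, an inhibitor that binds beta-catenin, fell (-1.58). The control mean of PYGO1 lay below the filter signal of 43.2, so PYGO1 was tested only through D20. It had little room to be called lower. TCF7L2, the relative of LEF1 and TCF7 that predominates in liver, was singled out after its values were seen. It went from 5311.2, 4483.9 and 5055.0 to 2547.3, 2358.7 and 2524.3 (-0.99 ± 0.09, SE), and all 6 of its other tested probe sets were also called lower.

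Of 13 further target genes 5 rose and 3 fell (61.5% called, against 44.3%). BMP4 (3.02, or 2.35 with a pseudocount of 64) and MMP7 (1.77, or 1.21 with a pseudocount of 64) were higher. CCND1, cyclin D1, was lower (-1.69, its other probe set being at -0.63 and not called). Of 8 tested genes described as targets of beta-catenin in liver, 5 fell and 2 rose (87.5% called, against 44.3%). SLC1A2 (-2.10), a glutamate transporter, SLCO1B3 (-2.07, or -1.47 with a pseudocount of 64), an uptake transporter, and GLUL (-1.64), glutamine synthetase of the cells around the central vein, fell. The 2 that rose were ODAM (1.56) and RHBG (1.46). The only tested probe set of SLC1A2 bears the _x suffix, so its fall could not be checked on a probe set without it. The call of SLC1A2 was lost without control A (-1.76, adjusted p = 0.067, limma), and SLC1A2 was at -1.20 with a pseudocount of 64. With a D20 mean of 14.2, below the filter signal of 43.2, SLC1A2 was tested only through the control. It had little room to be called higher. The summed hepatocyte markers were lower in D20 as well, as given above, and their part in the fall of this list was not tested. AFP, one of those markers, read at least 19921.2 in the control and at most 451.0 in D20, while FGB was higher in D20 (6266.4 to 6860.4, against 1883.7 to 2101.2).

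**Figure D3:**
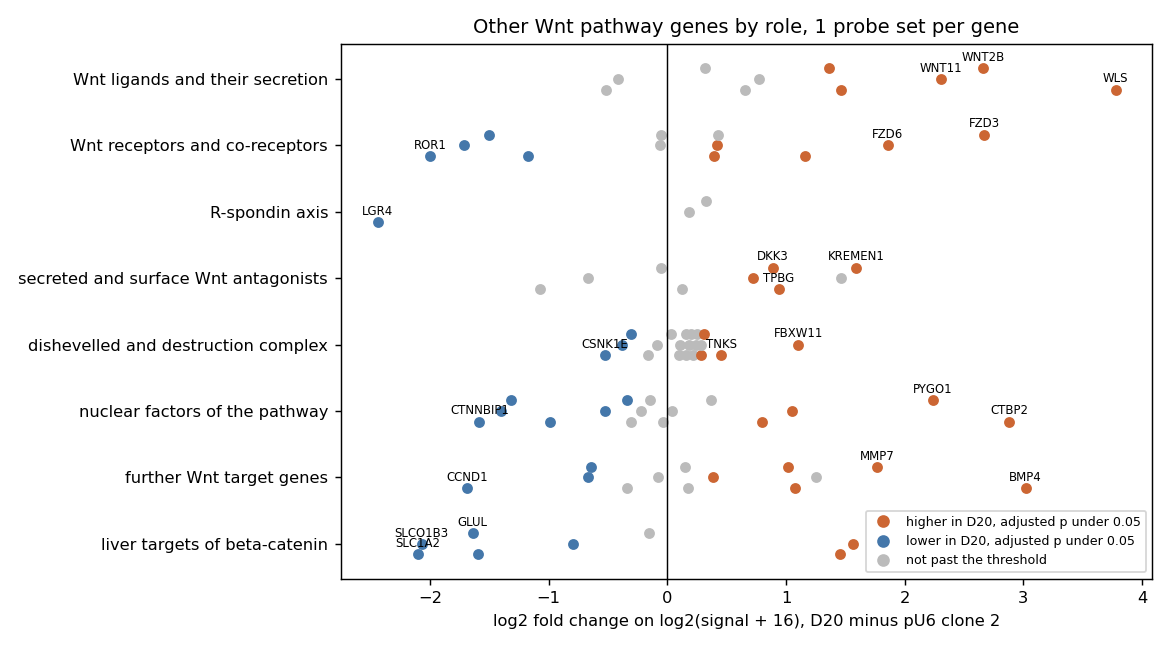
Log2 fold change, D20 minus the control clone, of the 91 other tested Wnt pathway genes (1 point per gene) in rows by role; colour marks the call and up to 3 called genes per row are labelled. All called genes of the ligand row (5) and of the antagonist row (4) lie to the right of 0, and 5 of the 7 called liver targets lie to the left. Among the called genes, WNT11, WNT9A and PYGO1 passed the filter only through D20, and ROR1 and SLC1A2 only through the control.

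**Figure D4:**
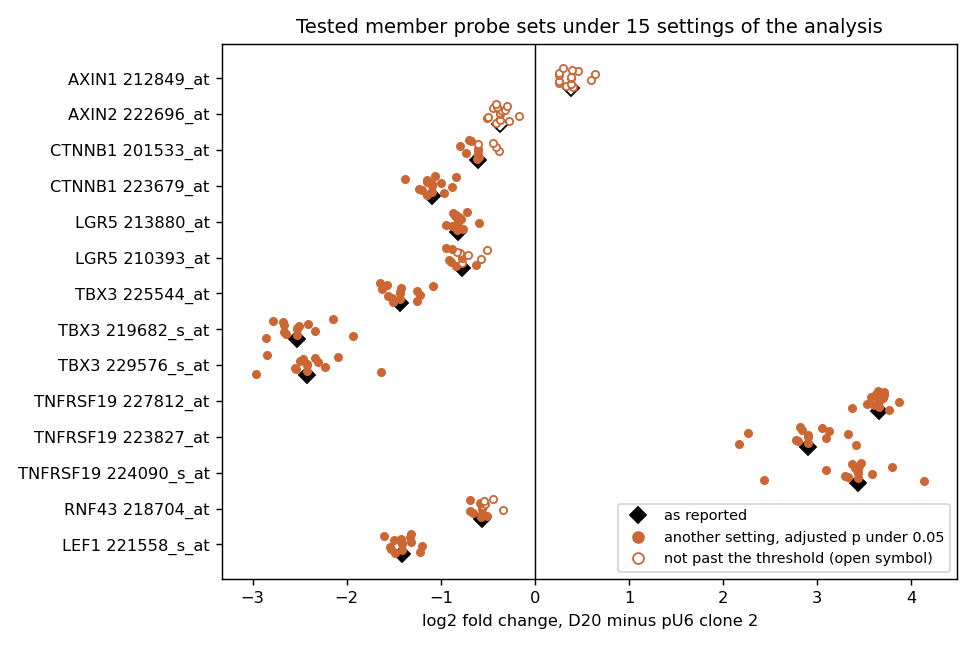
Log2 fold change of each of the 14 tested member probe sets as reported (diamonds) and in 14 alternative settings (circles, filled where the adjusted p was under 0.05). All 15 values of a probe set lie on the same side of 0, and open circles occur for AXIN1 and AXIN2 in every alternative, and for CTNNB1 201533_at, LGR5 210393_at and RNF43 in some.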

How the data were processed

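RNA of 3 arrays of the pU6 control clone and 3 of clone D20 was analysed, with groups taken from the sample titles. The authors' deposited values are intensity values, a linear MAS5 signal for each probe set on each array, made with MAS5 per the submitters' processing notes. The software version and scaling target were not stated in the sources used here, and no detection calls were used. MAS5 subtracts mismatch signal and scales each array (2% trimmed means were all 500.1), which makes dim values noisy.

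Gene names came from the annotation of the array platform in GEO, and symbols were updated to RefSeq by Entrez identifier: of 54675, 41091 had 1 symbol, 1801 several, 11721 none and 62 were controls. Several-symbol probe sets were not named. Signals were taken as log2(signal + 16), so changes of dim genes are understated. Controls and the 21845 probe sets with the lowest means were left out, leaving 32768. The mean was over all 6 arrays, so a probe set dim in 1 clone could be tested through the other. Clones were compared by limma 3.58.1 (R 4.3.3; eBayes with a variance trend, two-sided, all 6 arrays, no covariate), and p-values were adjusted by Benjamini-Hochberg across the 32768, with calls at 0.05. An exact permutation test of 3 against 3 cannot go below 0.1 and was not used. Other genes were represented by their brightest tested probe set, those ending in _x_at last, and up to 3 called genes per list were named by largest change. Some further genes were named after their values were seen, and not all of these were run in the alternative settings. No column of another series was used. Members and lists were chosen with earlier results of these data known. Alternatives covered the pseudocount, filter, normalization, variance trend, replicate block, each array left out and the choice of probe sets.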

Additional observations from a re-analysis of the deposited data

How the results depend on the processing

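Across 14 alternative settings the member calls ranged from 9 to 12 of 14 probe sets, with 3 higher in each setting and 6 to 9 lower. Of 196 values of single member probe sets, 179 kept their direction and side of the threshold, 17 kept their direction only and 0 turned. Of 413 values of the other genes that were run in alternative settings, 402 kept both, 10 lost the call, 1 gained it and 0 turned. Over all probe sets 3294 were called lower with spike-in scaling, against 5555 as reported. Under that scaling the median over all tested probe sets went, in log2 fold change, from 0.03 to 0.24 and that of the 14 member probe sets from -0.69 to -0.48; centring each array on its median moved them to -0.10 and -0.82. The share of calls that were higher went from 53.5% to 73.4% and 40.9%. Same-lettered arrays of the clones did not deviate together (correlations of -0.009, 0.023 and 0.004), so the letters were not taken to pair the arrays. With the letter as a replicate block 12557 probe sets were called, against 11952, with 12 of the 14 member probe sets and 51 of the other Wnt genes called as without it. Signals near the filter limit what can be said of NKD1 and of the dim probe sets of AXIN2, LEF1 and TBX3.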
